A study of Mus musculus with 8 samples.

Results

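MC010 is a mouse fibrosarcoma cell line labelled IRF8 KO, and its transcriptome was compared with those of MC654 and MC659, the cell lines labelled WT. The comparison used 6 of the 8 RNA-seq libraries of the series, chosen by their labels: 2 of MC010, 2 of MC654 and 2 of MC659. The other 2 libraries came from MC011, the second line labelled IRF8 KO, which stayed out of this contrast and was set beside MC010 for named genes. All mice, WT (C57BL/6) and IRF8 KO, had received 100 µg of methylcholanthrene (MCA) under the skin, a polycyclic hydrocarbon that mutates DNA and produces sarcomas. Tumors taken about 3 months later were dissociated and grown for at least 10 passages, in RPMI 1640 with serum and antibiotics. Sex and age of the mice were not given in the sources used here, and nearly all genes tested lay on the autosomes. MC010 is a single tumor line, so the genotype of its mouse and the history of that tumor cannot be told apart. The sources do not say whether the 2 libraries of a line came from separate cultures, and p-values therefore measure only the spread between these libraries, which may be technical.

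IRF8 is a transcription factor of the interferon regulatory factor family, best known for its role in the development of myeloid and B cells. The study asked how it acts on p53 and on ferroptosis, a form of cell death driven by peroxidation of membrane lipids. MCA fibrosarcomas descend from mesenchymal cells and commonly carry damage to the p53 or INK4/ARF tumor suppressor pathways. The gene groups below follow those subjects and the main pathways of a cultured fibroblast-like tumor cell.

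Total counts per library ran from 74063616 to 116206078. Values are given as CPM, counts scaled to the library total after TMM normalization, and for the WT-labelled lines always in the order MC654 library 1, MC654 library 2, MC659 library 1 and MC659 library 2. The smallest quantifiable level, 3 counts in a library, was 0.0263 to 0.0408 CPM. Libraries of 1 line correlated at r = 0.9988 to 0.9991 across genes on the log2 scale, those of MC654 with those of MC659 at 0.9963 to 0.9966, and those of MC010 with the WT-labelled lines at 0.9476 to 0.9502. These correlations are descriptions across genes, which are not independent replicates.

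The gene targeted in the KO mice went against the label. Irf8 (chromosome 8, 120736358 to 120756694, mm10) was read 442 and 347 times in the libraries of the line labelled MC010 and 1, 2, 1 and 0 times in the WT-labelled ones, with 32 and 10 reads in MC011. The pooled counts were 364-fold higher in MC010, with an exact 95% interval of 142 to 1340 that covers counting error only, and edgeR's log2 fold change was 8.36 with a standard error of 0.38 and an adjusted p = 1.18e-07. The counts are per whole gene and do not say which exons were read, so they do not show whether the transcripts were complete. The paper reports PCR genotyping of genomic DNA from the lines, with primers for the WT and the mutant allele. It gave each line the genotype of its label. The groups were kept as labelled, and neither an exchange of lines nor transcription from a targeted allele was tested with the counts used here. Trp53, described further on, was higher in both KO-labelled lines than in the WT-labelled libraries, at 352 and 337 CPM in MC010, 168 and 161 in MC011 and 31.9, 30.4, 30.7 and 29.1 in the WT-labelled lines. Among the 24 tested genes within 1 Mb of Irf8, the median log2 fold change was 0.243, with 6 called higher and 3 lower. These counts are near the shares over all tested genes, 19.7% higher and 16.6% lower.

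The difference between MC010 and the WT-labelled lines reached over a large part of the transcriptome. Of 16072 genes tested with edgeR's quasi-likelihood test, 5827 were called (Benjamini-Hochberg adjusted p under 0.05 and a log2 fold change beyond 0.59), which is 36.3% of all tested genes. There were 3159 higher (19.7%) and 2668 lower (16.6%) in MC010, and the median over all tested genes was -0.002. At an unadjusted p under 0.05 there were 10579. In 5809 of the called genes both MC010 libraries lay outside the range of all 4 WT-labelled libraries and moved the same way against MC654 and against MC659. Without regard to a call, 37.4% of tested genes had both MC010 libraries above, and 34.8% below, all WT-labelled libraries. With each line as its own group (16703 genes tested), 5975 genes (35.8%) were called between MC010 and MC654 and 6136 (36.7%) between MC010 and MC659, against 765 (4.58%) between MC654 and MC659. Between MC010 and MC011, which carry the same label, 5447 (32.6%) were called. Counts of gene groups below are read against these shares, and in each gene called within a list both MC010 libraries lay outside the range of the 4 WT-labelled libraries.

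**Figure D1:**
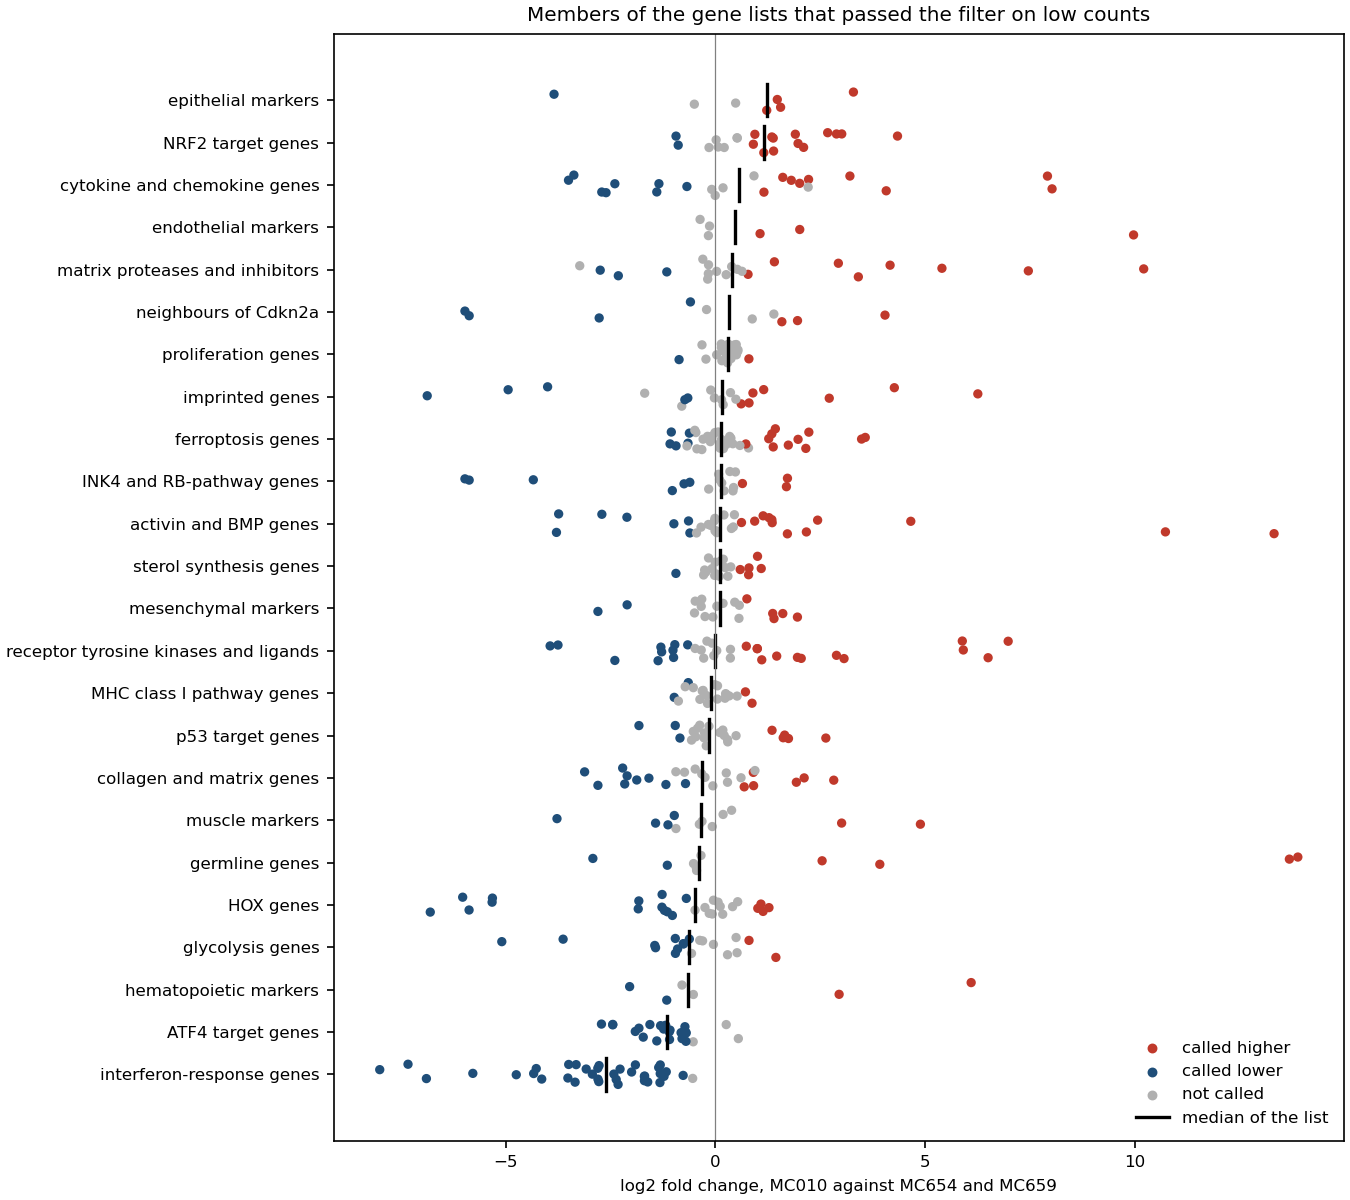
Log2 fold change of MC010 against the WT-labelled lines (x axis) for each tested member of 24 gene lists (y axis). Each point is a gene, colours mark genes called higher, called lower or not called, and bars mark list medians. All interferon-response genes and most ATF4 targets lie left of 0, most NRF2 targets lie right of 0, and most other lists spread to both sides.

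The genes that rose most were absent or close to absent from the WT-labelled lines. Esp15 (chromosome 17, 39640957 to 39645666), which encodes a secreted peptide of exocrine glands, was at 270.0 and 287 CPM in MC010 and at 0 counts in all 4 WT-labelled libraries, at least 8044-fold higher against a level of 3 counts per library. It was also at 0 counts in MC011. Cck, the peptide hormone cholecystokinin (chromosome 9, 121489824 to 121495694), was at 83.6 and 73.5 CPM, again with 0 counts in the 4 WT-labelled libraries (at least 2268-fold higher). Rpl39l, a copy of the ribosomal protein gene Rpl39 (at least 862-fold), Klhl1, a kelch-family actin-binding protein (at least 748-fold), and Tdrd1, a tudor-domain protein of germ cells (at least 536-fold), showed the same all-or-none pattern, as did AI606473, Tinag, Sele and Slitrk6 (at least 275, 214, 199 and 177-fold). Rpl39l is nearly identical in sequence to Rpl39, which was not analysed here, and its counts are uncertain for that reason.

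The other genes of this group had few reads in the WT-labelled lines, from 1 in all for Crisp1 and Scara5 to 13 for Fst. Fst encodes follistatin, the secreted antagonist of activin, and was at 394 and 407 CPM in MC010 against 0.0359, 0.0935, 0.0228 and 0 CPM, a ratio of pooled counts of 10600-fold, 95% interval 6220 to 20000. Crisp1, a secreted protein of the epididymis, stood at 61.00 and 69.7 CPM (1 read in all WT-labelled libraries together), and Scara5, a scavenger receptor for ferritin, at 42.5 and 43.9 CPM (also 1 read). Aldh3a1, an aldehyde dehydrogenase, was at 53.4 and 50.6 CPM against 0.01197, 0.0117, 0.0114 and 0. Fbn2, the microfibril protein fibrillin 2, was at 74.9 and 73.8 CPM against 0, 0.0117, 0 and 0.0445. In none of the 15 genes that rose most did a WT-labelled library come near either MC010 library. MC011 was lower than MC010 as well in Esp15, Cck, Rpl39l and Klhl1. The log2 differences ran from 7.96 in Klhl1 to 17.59 in Esp15, each called by edgeR's test. Other genes of this group were far above the WT-labelled lines in MC011 too. Scara5 was at 33.2 and 35.1 CPM there, Fst at 73.6 and 75.3, Fbn2 at 16.3 and 14.8, and Aldh3a1 at 9.16 and 8.91. The log2 differences of MC010 from MC011 were 0.34 for Scara5, 2.43 for Fst, 2.26 for Fbn2 and 2.53 for Aldh3a1.

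**Figure D2:**
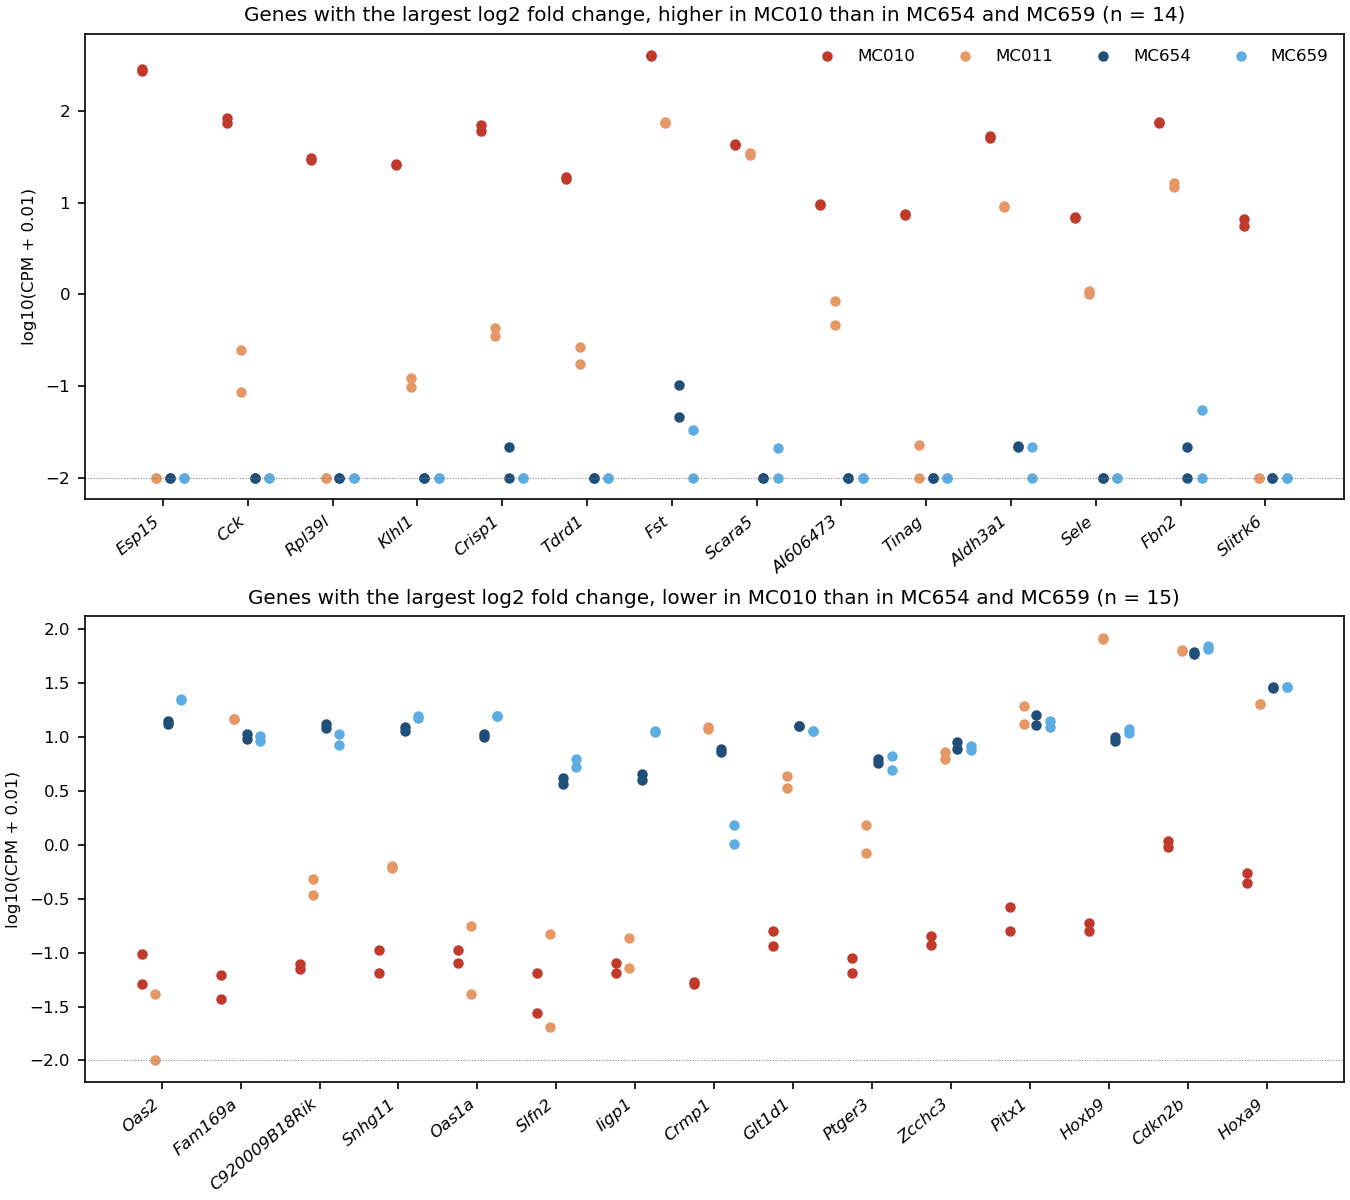
CPM of each library as log10(CPM + 0.01) (y axis) for genes with the largest rise (upper panel) and the largest fall (lower panel) in MC010 (x axis). Points are single libraries coloured by line, the dotted line marks 0 counts, and both MC010 libraries lie apart from the 4 WT-labelled libraries in every gene, while MC011 lies near MC010 for Oas2, Oas1a, Slfn2 and Iigp1 and near the WT-labelled lines for Cdkn2b, Zcchc3 and Pitx1.

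The 15 genes that fell most included interferon-induced genes, homeobox genes and Cdkn2b. Oas2 and Oas1a encode 2′-5′-oligoadenylate synthetases, which sense double-stranded RNA. Oas2 was at 0.0875 and 0.0408 CPM in MC010 and 13.9, 13.3, 22.1 and 22.3 CPM in the WT-labelled lines (log2 fold change -7.999, standard error 0.46, edgeR adjusted p = 4.44e-06), and Oas1a at 0.07001 and 0.0953 against 10.6, 9.98, 15.8 and 15.7 (log2 fold change -7.32, standard error 0.36, edgeR adjusted p = 3.72e-07). The WT-labelled libraries were all far above MC010, and MC659 was above MC654 in both genes. Slfn2, a schlafen-family gene, fell by 7.17 on the log2 scale and Iigp1, an immunity-related GTPase, by 6.89. Among developmental regulators, Pitx1, a homeobox gene of the hindlimb, was at 0.254 and 0.1497 CPM against 16.1, 13.01, 12.3 and 14.01, with 19.4 and 13.1 in MC011. Hoxb9 fell by 6.02 and Hoxa9 fell by 5.87. The rest were Fam169a (fell by 7.82), the transcripts C920009B18Rik (7.41) and Snhg11 (7.40), Crmp1, a collapsin response mediator, Glt1d1, Ptger3, the EP3 receptor of prostaglandin E2 (log2 fold change -6.39), and Zcchc3 (log2 fold change -6.05). Crmp1 was unequal within the WT-labelled lines, with 7.68 and 7.16 CPM in the libraries of MC654 but 1.01 and 1.52 in those of MC659. Fam169a, Crmp1, Glt1d1 and C920009B18Rik overlap other expressed genes, and their counts are uncertain for that reason.

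The Cdkn2a-Cdkn2b locus on chromosome 4 was almost silent in MC010. Cdkn2a (chromosome 4, 89274471 to 89294653) encodes p16INK4a, an inhibitor of CDK4 and CDK6, and in another reading frame p19ARF, which releases p53 from MDM2, and gene counts do not separate these products. It was at 6.598 and 4.995 CPM in MC010 and 377, 329, 326 and 327 in the WT-labelled lines (5.797 ± 1.13 (SD, n = 2) against 339.7 ± 24.6 (SD, n = 4)), and the log2 fold change was -5.87 with a standard error of 0.14 and an edgeR adjusted p = 1.37e-08. Cdkn2b (chromosome 4, 89306289 to 89311032), the neighbouring gene for p15INK4b, lay 11.6 kb away and was at 1.08 and 0.953 CPM against 61.9, 58.2, 69.7 and 65.4 (log2 fold change -5.97, standard error 0.11, edgeR adjusted p = 7.61e-10). Reads of both genes remained in both MC010 libraries, 754 and 367 for Cdkn2a and 123 and 70 for Cdkn2b. The line MC011 had 342 and 286 CPM of Cdkn2a and 63.4 and 62.1 CPM of Cdkn2b, and the log2 difference of MC010 from MC011 was -5.74, edgeR adjusted p = 1.54e-12 and -5.93, edgeR adjusted p = 7.88e-18.

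The flanking genes moved in both directions. Mtap, a methylthioadenosine phosphorylase that is often lost together with Cdkn2a in tumors, lies 93.4 kb away and was at 1017 and 1058 CPM against 264, 274, 258 and 263 (log2 fold change 1.96, standard error 0.043, edgeR adjusted p = 1.60e-09). Elavl2, an RNA-binding protein gene 1956.1 kb away on the other side, was at 2.34 and 2.19 CPM against 0.108, 0.0935, 0.125 and 0.211. Both were higher in the 2 MC010 libraries than in all WT-labelled libraries. Mllt3 also rose (log2 fold change 1.59), whereas Focad (-0.59) and the low Adamtsl1 (5 counts against 66 in all) fell. Focad overlaps Hacd4, and without strand reads of the 2 genes cannot be told apart. Of the 10 neighbours listed in the table, 3 rose and 4 fell, the locus pair included, and the median was 0.336.

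**Figure D3:**
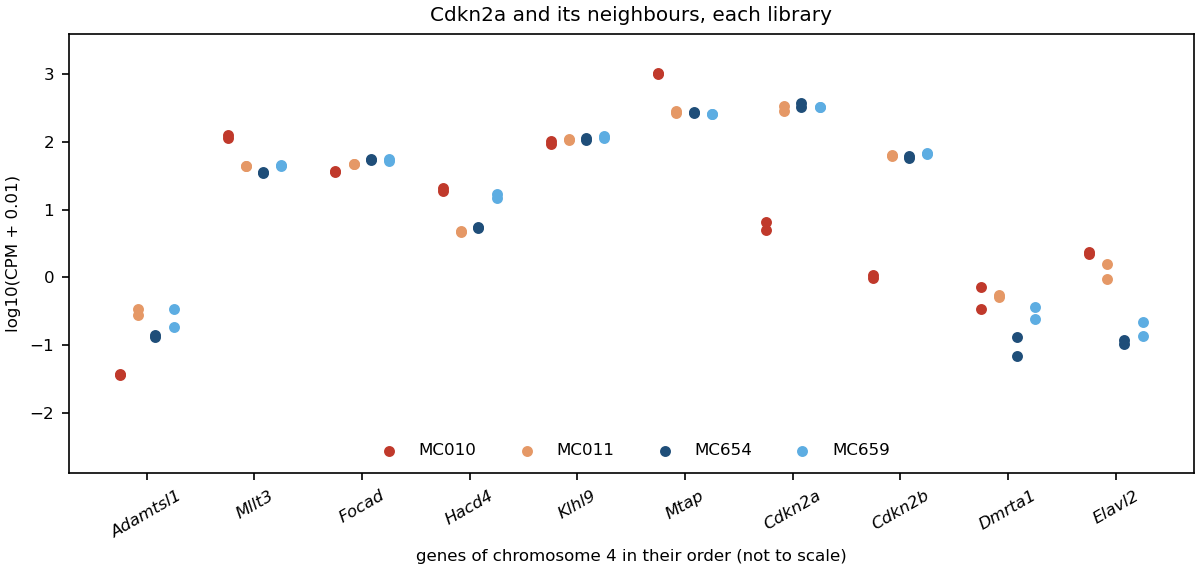
CPM of each library (y axis, log10 scale with 0.01 added) for 10 genes of the Cdkn2a region in chromosome order (x axis, not to scale). Both MC010 libraries sit far below the other lines for Cdkn2a and Cdkn2b, and above the WT-labelled lines for Mtap next to them.

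Regulators of the G1 phase moved in both directions. Of 18 INK4 and RB-pathway genes, all tested and with Cdkn2a and Cdkn2b among them, 3 rose and 6 fell, the locus pair included, and the median was 0.127. Ccnd2, cyclin D2, was at 20.5 and 21.5 CPM in MC010 against 441, 444, 406 and 393 (log2 fold change -4.34, standard error 0.081, edgeR adjusted p = 7.61e-10). Mdm4, an inhibitor of p53, was at 59.9 and 64.7 CPM against 121, 131, 127 and 125 (log2 fold change -1.02, standard error 0.056, edgeR adjusted p = 3.62e-07). The genes that rose were Cdkn2c, for p18INK4c, at 88.5 and 84.9 CPM against 27.5, 25.7, 27.2 and 26.01 (log2 fold change 1.70, standard error 0.053, edgeR adjusted p = 1.12e-08), E2f2 (log2 fold change 1.72) and Cdkn2d, for p19INK4d (log2 fold change 0.65). All 3 were above the range of the WT-labelled libraries in both MC010 libraries.

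Trp53 rose more than any of the tested p53 targets. It encodes p53 (chromosome 11, 69580359 to 69591873) and was at 352 and 337 CPM in MC010 and 31.9, 30.4, 30.7 and 29.1 in the WT-labelled lines (log2 fold change 3.49, standard error 0.051, edgeR adjusted p = 2.82e-10). The log2 difference of MC010 from MC011 was 1.06, edgeR adjusted p = 8.70e-12. Its target genes showed no common direction. Of 23 tested p53 targets, 5 rose (background 19.7%) and 3 fell (background 16.6%), and the median was -0.152. Cdkn1a, the p21 inhibitor of cyclin-dependent kinases, was at 31.2 and 26.2 CPM against 9.72, 9.56, 8.78 and 8.24 (log2 fold change 1.65, standard error 0.10, edgeR adjusted p = 8.38e-07), and at 7.05 and 7.46 in MC011 (log2 difference of MC010 1.99, edgeR adjusted p = 1.47e-11). Ddb2, a DNA damage sensor, rose (log2 fold change 1.62), as did Pmaip1, which encodes the death protein NOXA (log2 fold change 2.63), Trp53inp1 (1.35 on the log2 scale) and Perp. Sesn2, a stress-induced sestrin, was at 13.4 and 11.3 CPM against 44.9, 39.2, 43.5 and 46.1 (log2 fold change -1.82, standard error 0.095, edgeR adjusted p = 2.72e-07), and Bbc3, which encodes PUMA (log2 fold change -0.95), and Plk2 (log2 fold change -0.84) also fell. Ddb2 overlaps Acp2 on the opposite strand.

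Interferon-response genes were lower in MC010 with 1 exception. These genes are switched on when the interferon-activated complex that includes IRF9 binds the interferon-stimulated response element, and their products block viruses and present antigen. Of 36 members, all tested, 35 fell (background 16.6%) and 0 rose by edgeR's test. The median log2 fold change was -2.594, and Gbp2 was the member not called. Among the sensors, Oas1b was at 0.551 and 0.599 CPM in MC010 against 4.65, 4.69, 6.52 and 6.91 (log2 fold change -3.32, standard error 0.24, edgeR adjusted p = 2.79e-06), beside Oas1a and Oas2 above. Irf9, the DNA-binding subunit of the complex, was at 13.98 and 13.3 CPM against 38.3, 36.3, 49.9 and 50.8 (log2 fold change -1.69, standard error 0.15, edgeR adjusted p = 2.91e-05). Irf7, the amplifier of type I interferon, was at 3.52 and 3.12 CPM against 23.8, 22.5, 41.8 and 46.4 (log2 fold change -3.34, standard error 0.43, edgeR adjusted p = 0.00115), and Ifit1, an inhibitor of viral RNA translation, at 11.6 and 12.02 against 80.7, 81.1, 117 and 117 (log2 fold change -3.08, standard error 0.22, edgeR adjusted p = 4.32e-05). In each of these genes both libraries of MC010 lay below all 4 WT-labelled libraries. Oas, Ifit and GTPase genes form families of close copies, and Irf9, Irf7, Irgm2 and Igtp overlap other genes, so single values are less certain than the common direction.

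The WT-labelled lines also differed from each other in this group. With a group per line, 23 of the 36 members were lower in MC654 than in MC659, where 3.42% of all tested genes were, and 0 were higher (background 1.16%). Against MC654 alone 35 members were lower in MC010 (median -2.099, background 15.4%) and 0 higher (background 20.3%), and against MC659 alone 36 were (median -2.889, background 16.9%). Between the KO-labelled lines, 22 members were higher and 1 lower in MC010 than in MC011, with 16.3% of all genes called in each direction. MC010 and MC011 were both compared with the same 4 WT-labelled libraries. The log2 difference of MC010 from MC011 was 2.20, edgeR adjusted p = 4.11e-12 for Ifit1 and 1.43, edgeR adjusted p = 1.19e-06 for Irf7.

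Promoters of this group are shown because its members moved together. The windows run from 250 bases before to 50 after the annotated start, from RefSeq on GRCm38.p6, with matches to the core of the interferon-stimulated response element (GAAA, any 2 bases, GAAA) in capitals. This motif was searched on both strands and was present in 17 of 30 windows of the list (56.7%) and in 3.44% of all 32851 windows. Windows were found for 26 of the 36 genes, and 17 of these genes carried the motif, against 3.99% of all genes with windows. Overlapping matches were merged in the capitals. A match is a description of the letters and no measure of binding.
Oas1a, chr5:120907476-120907775, minus strand: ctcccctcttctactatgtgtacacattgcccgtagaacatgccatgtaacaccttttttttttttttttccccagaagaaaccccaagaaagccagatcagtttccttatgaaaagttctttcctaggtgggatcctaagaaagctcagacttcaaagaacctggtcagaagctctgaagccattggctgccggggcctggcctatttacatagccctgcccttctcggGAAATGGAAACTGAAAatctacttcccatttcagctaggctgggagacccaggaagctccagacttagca
Cxcl10, chr5:92348840-92349139, minus strand: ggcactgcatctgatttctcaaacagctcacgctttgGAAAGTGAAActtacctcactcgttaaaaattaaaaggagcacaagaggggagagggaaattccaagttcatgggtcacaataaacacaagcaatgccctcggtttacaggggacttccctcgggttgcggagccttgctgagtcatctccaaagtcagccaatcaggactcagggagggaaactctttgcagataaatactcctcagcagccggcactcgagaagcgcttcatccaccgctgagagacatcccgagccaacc
Irgm1, chr11:48871371-48871670, minus strand: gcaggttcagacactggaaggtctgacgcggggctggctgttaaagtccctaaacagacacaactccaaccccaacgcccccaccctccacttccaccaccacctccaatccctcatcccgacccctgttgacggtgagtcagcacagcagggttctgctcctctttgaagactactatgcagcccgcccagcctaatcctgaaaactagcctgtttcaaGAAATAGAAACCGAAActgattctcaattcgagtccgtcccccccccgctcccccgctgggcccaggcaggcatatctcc
The matches began at -20 and -14 from the start of Oas1a, at -213 for Cxcl10 and at -30 and -24 for Irgm1. Of these genes Cxcl10, a chemokine for T cells, was at 8.296 and 8.29 CPM in MC010 against 26.1, 25.3, 36.4 and 35.7 (log2 fold change -1.90, standard error 0.17, edgeR adjusted p = 3.01e-05), and Irgm1, an immunity-related GTPase, at 19.1 and 19.2 against 50.4, 54.7, 71.7 and 69.3 (log2 fold change -1.69, standard error 0.15, edgeR adjusted p = 4.19e-05).

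**Figure D4:**
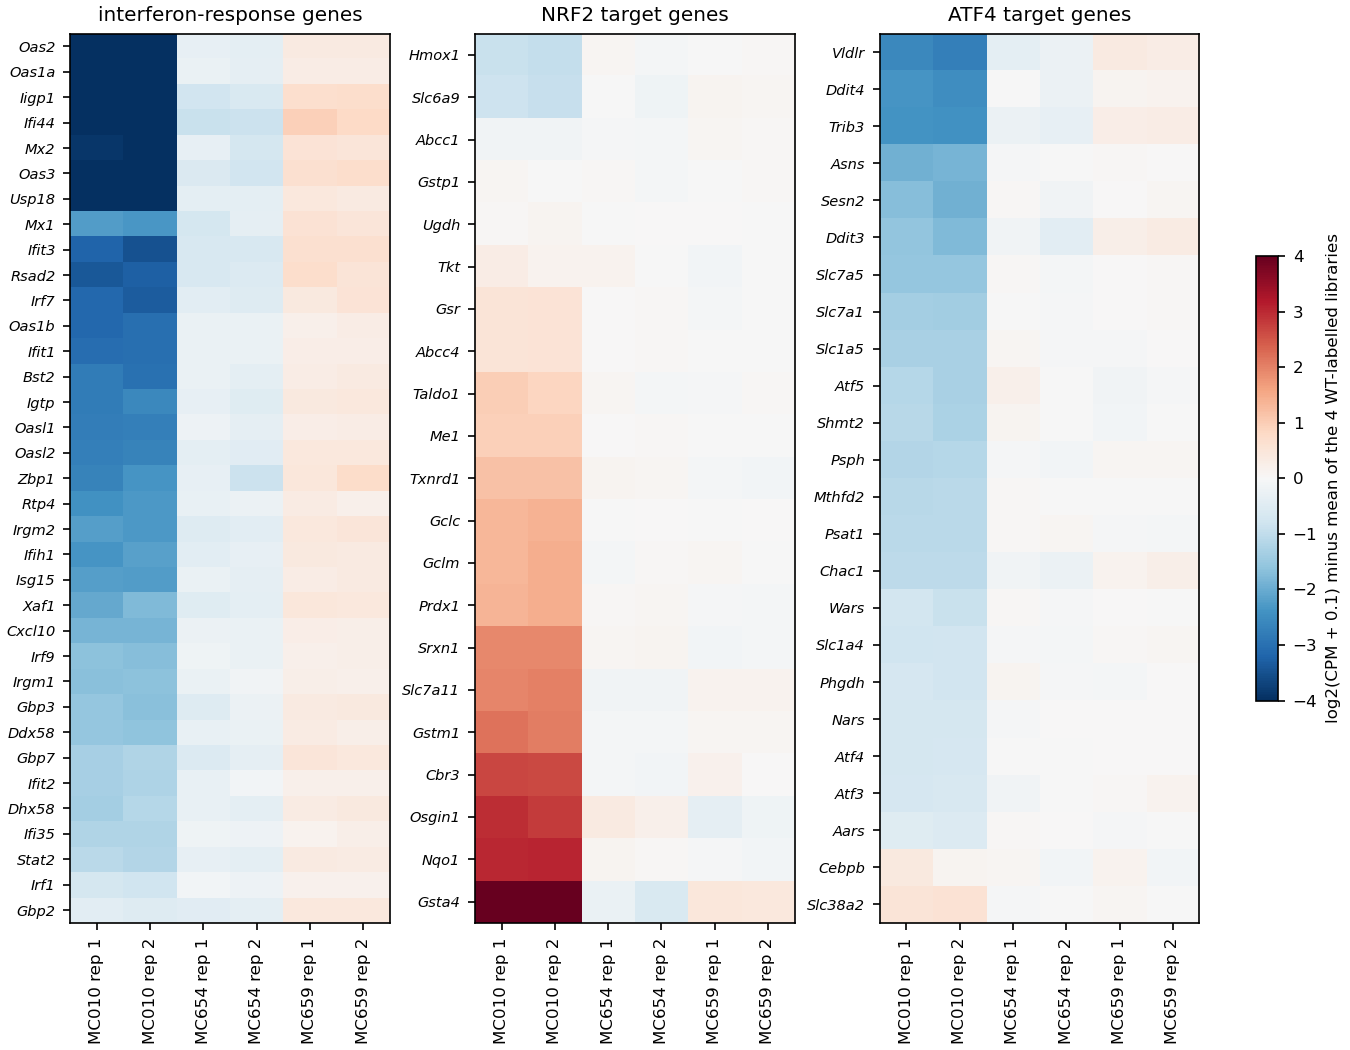
Difference of each library from the mean of the 4 WT-labelled libraries in log2(CPM + 0.1) (colour, capped at -4 and 4) for the reported interferon-response, NRF2 and ATF4 target genes (rows) in the 6 libraries (columns). Interferon-response genes are lower in both MC010 libraries, and MC654 is below MC659 for many of them. NRF2 targets are mostly higher in MC010, and ATF4 targets mostly lower.

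Genes of MHC class I presentation did not share that direction. Of 20 tested members, 2 rose and 2 fell, near the background or below it, and the median was -0.099. Tapbp, the chaperone tapasin, was at 157 and 148 CPM against 82.4, 74.8, 105 and 106 (log2 fold change 0.72, standard error 0.14, edgeR adjusted p = 0.00383), and Psmb8, an immunoproteasome subunit, rose by 0.88 on the log2 scale. Erap1, which trims peptides, was at 27.8 and 28.8 CPM against 39.03, 43.7, 47.7 and 45.3 (log2 fold change -0.64, standard error 0.079, edgeR adjusted p = 7.97e-05), and Cd274, for PD-L1, at 1.79 and 0.939 against 2.11, 2.58, 3.28 and 2.84 (log2 fold change -0.98, standard error 0.28, edgeR adjusted p = 0.0138). These 4 calls depended on the control line: without MC654 there were 0 higher and 6 lower, and without MC659 there were 4 higher and 1 lower. Relative to MC011, 12 of the 20 were higher in MC010 (background 16.3%) with a median log2 difference of 1.259. Tapbp and Erap1 overlap other genes.

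Targets of NRF2 were mostly higher in MC010. NRF2 binds the antioxidant response element and drives glutathione synthesis, thioredoxin and detoxifying enzymes. Of 21 tested members, 13 rose (background 19.7%) and 2 fell, and the median was 1.156. Nqo1, a quinone reductase, was at 399 and 405 CPM against 52.8, 51.2, 48.00 and 45.7 (log2 fold change 3.01, standard error 0.062, edgeR adjusted p = 1.11e-09). Gstm1, a glutathione transferase, was at 216 and 198 CPM against 45.3, 44.7, 50.4 and 50.8 (log2 fold change 2.10, standard error 0.063, edgeR adjusted p = 8.81e-09), and its close copies in the Gstm family make the value uncertain. Gclc and Gclm, the subunits of the first enzyme of glutathione synthesis, both rose: Gclc was at 178 and 185 CPM against 70.5, 71.7, 69.9 and 70.96 (log2 fold change 1.35, standard error 0.042, edgeR adjusted p = 1.20e-08) and Gclm at 158 and 169.6 against 58.6, 64.1, 65.9 and 61.4 (log2 fold change 1.38, standard error 0.055, edgeR adjusted p = 5.22e-08). Srxn1, sulfiredoxin, was at 318 and 318 CPM against 88.8, 90.7, 77.8 and 79.3 (log2 fold change 1.91, standard error 0.07, edgeR adjusted p = 3.00e-08). The members that fell were Hmox1, heme oxygenase 1 (22.7 and 21.7 CPM against 44.1, 40.1, 41.7 and 43.2, log2 fold change -0.94), and Slc6a9, a glycine transporter (log2 fold change -0.88, overlapping B4galt2). Relative to MC011, 14 were higher in MC010 and 0 lower, and the log2 difference was 2.14, edgeR adjusted p = 1.38e-15 for Nqo1 and 1.29, edgeR adjusted p = 6.64e-13 for Gclc. MC654 and MC659 differed in 1 of the 21, which was lower in MC654.

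The antioxidant response element core TGACNNNGC was present on either strand in 12 of 25 windows of this list (48.0%, 18 genes matched), and in 12.4% of all windows. The promoters of Srxn1 and Prdx1, a peroxiredoxin, are shown with the match in capitals as examples from genes that rose.
Srxn1, chr2:152105274-152105573, plus strand: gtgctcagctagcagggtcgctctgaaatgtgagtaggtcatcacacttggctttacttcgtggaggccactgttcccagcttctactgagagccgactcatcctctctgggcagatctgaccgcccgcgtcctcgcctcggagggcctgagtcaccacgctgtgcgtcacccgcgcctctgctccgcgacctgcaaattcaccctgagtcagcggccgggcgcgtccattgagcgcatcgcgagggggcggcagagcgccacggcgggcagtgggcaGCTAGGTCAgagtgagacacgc
Prdx1, chr4:116685349-116685648, plus strand: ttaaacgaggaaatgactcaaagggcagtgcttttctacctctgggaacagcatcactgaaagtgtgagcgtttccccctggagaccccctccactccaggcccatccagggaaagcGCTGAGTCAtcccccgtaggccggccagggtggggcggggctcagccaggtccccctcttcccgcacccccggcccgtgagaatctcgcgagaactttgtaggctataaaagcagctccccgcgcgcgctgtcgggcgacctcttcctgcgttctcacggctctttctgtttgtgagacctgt
The match lay at position 28 after the start of Srxn1 and began at -133 in Prdx1. Prdx1 was at 1446 and 1527 CPM against 577, 594, 547 and 537 (log2 fold change 1.39, standard error 0.054, edgeR adjusted p = 4.27e-08).

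Ferroptosis genes moved in both directions. Of 39 tested members, 11 rose (background 19.7%) and 5 fell (background 16.6%), and the median was 0.147. The cystine importer system xc- is a pair of subunits that moved apart: Slc7a11, the transporter, was at 124 and 132 CPM in MC010 against 29.4, 29.2, 35.4 and 35.6 (log2 fold change 1.97, standard error 0.084, edgeR adjusted p = 9.40e-08), and Slc3a2, its heavy chain shared with other transporters, was at 142 and 138 against 214, 205, 228 and 228 (log2 fold change -0.65, standard error 0.052, edgeR adjusted p = 5.00e-06). Gss, the second enzyme of glutathione synthesis, was at 23.4 and 22.9 CPM against 52.96, 49.8, 42.2 and 45.3 (log2 fold change -1.05, standard error 0.098, edgeR adjusted p = 1.30e-05), below the WT-labelled libraries while Gclc and Gclm were above them. Gss overlaps Acss2. Gpx4, the peroxidase that repairs lipid peroxides, was at 189.9 and 182 CPM against 186, 174, 185 and 198 (log2 fold change -0.01, standard error 0.054, edgeR adjusted p = 0.923), and these ranges overlap. Chac1, which degrades glutathione, was at 11.6 and 11.7 CPM against 22.1, 20.4, 26.8 and 28.6 (log2 fold change -1.08, standard error 0.13, edgeR adjusted p = 1.06e-04). Dpp4, a peptidase tied to p53 in ferroptosis, was read 33 and 22 times against 1, 4, 7 and 1 times, a pooled ratio of 7.81-fold, 95% interval 4.21 to 15.6 (log2 fold change 2.92, standard error 0.66, edgeR adjusted p = 0.00367), and its log2 difference from MC011 was 1.39, edgeR adjusted p = 0.116. The ratio rests on few reads. Other members that rose were Cp, ceruloplasmin (3.57, overlapping Hps3), Ptgs2, cyclooxygenase 2 (1.74), Gch1 (2.23) and Acsl6 (2.16), all log2 fold changes. Slc40a1, the iron exporter ferroportin, was not called (1.92 and 2.504 CPM against 2.12, 2.08, 4.89 and 4.91, log2 fold change -0.68, standard error 0.42, edgeR adjusted p = 0.201), and the WT-labelled lines differed from each other, so that without MC654 the log2 fold change was -1.167 and called.

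ATF4 targets were mostly lower in MC010. ATF4 is the transcription factor of the integrated stress response and drives amino acid synthesis and uptake. Of 24 tested members 21 fell (background 16.6%) and 0 rose by edgeR's test, with 1 higher at the adjusted p alone, and the median was -1.140. Asns, asparagine synthetase, was at 75.7 and 78.4 CPM against 277, 283, 299 and 289.9 (log2 fold change -1.91, standard error 0.049, edgeR adjusted p = 3.40e-09). The amino acid transporters Slc7a5 (129.9 and 127 CPM against 385, 355, 381 and 385, log2 fold change -1.56, standard error 0.049, edgeR adjusted p = 1.25e-08), Slc7a1 (log2 fold change -1.39) and Slc1a5 (log2 fold change -1.30) fell as well. In each, both MC010 libraries were under all WT-labelled libraries. Slc7a11 above, which is also an ATF4 target but was not a member of this list, rose. Relative to MC011, 12 of the 24 were lower in MC010 and 0 higher, and the log2 difference of Asns was -1.25, edgeR adjusted p = 1.12e-12.

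The C/EBP-ATF response element core TGATGNAA was present on either strand in 7 of 24 windows of this list (29.2%) and in 3.97% of all windows. Windows were found for 20 genes of the list, and 7 of these carried the motif, against 4.51% of all genes with windows. The promoters of Asns and Slc1a4, a transporter of serine and alanine, carry it as shown in capitals.
Asns, chr6:7693160-7693459, minus strand: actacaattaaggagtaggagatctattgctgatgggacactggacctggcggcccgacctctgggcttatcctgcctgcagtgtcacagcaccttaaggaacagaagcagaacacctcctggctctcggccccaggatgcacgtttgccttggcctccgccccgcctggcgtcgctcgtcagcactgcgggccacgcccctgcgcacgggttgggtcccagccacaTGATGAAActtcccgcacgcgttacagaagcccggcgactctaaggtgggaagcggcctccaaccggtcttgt
Slc1a4, chr11:20332664-20332963, minus strand: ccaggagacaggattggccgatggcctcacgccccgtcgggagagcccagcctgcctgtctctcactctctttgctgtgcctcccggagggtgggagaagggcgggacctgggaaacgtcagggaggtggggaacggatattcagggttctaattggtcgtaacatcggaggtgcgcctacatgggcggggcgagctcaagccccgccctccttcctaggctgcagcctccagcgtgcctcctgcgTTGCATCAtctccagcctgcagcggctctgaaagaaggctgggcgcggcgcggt
The matches began at -23 and -4 from the start. Slc1a4 was at 61.3 and 62.1 CPM against 102, 101, 110.1 and 112 (log2 fold change -0.79, standard error 0.054, edgeR adjusted p = 1.72e-06).

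Glycolytic genes were largely lower and sterol genes mixed. Of 19 tested glycolysis genes, 10 fell and 2 rose, and the median was -0.619. Pfkp, a phosphofructokinase isozyme, was at 13.3 and 12.9 CPM against 152, 147, 175 and 171 (log2 fold change -3.63, standard error 0.087, edgeR adjusted p = 2.34e-09), while Pfkm, the muscle isozyme, was at 80.4 and 74.98 against 44.1, 42.9, 44.6 and 45.4 (log2 fold change 0.80, standard error 0.051, edgeR adjusted p = 1.10e-06). The lactate dehydrogenase subunits moved apart as well: Ldha was at 865 and 845 CPM against 2430.0, 2304, 2211 and 2289 (log2 fold change -1.44, standard error 0.053, edgeR adjusted p = 2.95e-08) and Ldhb at 42.2 and 40.5 against 15.5, 15.4, 14.2 and 15.3 (log2 fold change 1.44, standard error 0.066, edgeR adjusted p = 1.20e-07). Slc16a3, the lactate exporter MCT4, was at 8.296 and 7.43 CPM against 308, 270.4, 242 and 247 (log2 fold change -5.09, standard error 0.14, edgeR adjusted p = 3.46e-08), and Gpi1 fell by 1.42 on the log2 scale. Pfkp and Pfkm overlap Pitrm1 and Senp1 on the opposite strand. Of 20 tested sterol synthesis genes, 5 rose and 1 fell, against a median of 0.115. Sqle, squalene epoxidase, was at 219.8 and 229 CPM against 150.2, 146, 152 and 143 (log2 fold change 0.59, standard error 0.044, edgeR adjusted p = 2.96e-06) and Dhcr7, the last enzyme of cholesterol synthesis, at 39.3 and 40.8 against 77.9, 73.7, 75.8 and 77.5 (log2 fold change -0.94, standard error 0.051, edgeR adjusted p = 3.45e-07). Relative to MC011, 15 of the 20 were higher in MC010, with a median log2 difference of 0.821.

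Collagen and matrix genes moved in both directions. Of 25 tested collagen and matrix genes, 6 rose and 9 fell (median -0.323). Fn1, fibronectin, was at 1165 and 1143 CPM against 8119.5, 7727, 7931 and 8104 (log2 fold change -2.80, standard error 0.045, edgeR adjusted p = 3.94e-10), and the fibrillar collagens Col5a2 (48.7 and 49.8 CPM against 223, 209, 212 and 230.3, log2 fold change -2.16, standard error 0.057, edgeR adjusted p = 4.14e-09) and Col5a1 (log2 fold change -1.58) fell with it. Loxl1, a cross-linking oxidase, was at 44.2 and 38.6 CPM against 148, 124, 163 and 168 (log2 fold change -1.87, standard error 0.13, edgeR adjusted p = 8.63e-06). Thbs2, thrombospondin 2, was at 1520.1 and 1502 CPM against 227, 222, 198 and 201 (log2 fold change 2.82, standard error 0.064, edgeR adjusted p = 1.88e-09), and Col4a1, a basement membrane collagen, at 590.1 and 553 against 146, 131, 119 and 128 (log2 fold change 2.12, standard error 0.075, edgeR adjusted p = 3.67e-08). Loxl2 also rose (1.93). Of the main fibrillar collagens, Col1a1 fell (log2 fold change -2.10, standard error 0.35, edgeR adjusted p = 0.004), while Col1a2 (log2 fold change -0.48) and Col3a1 (-0.32) were not called. Col1a1 had a log2 difference from MC011 of -2.33, edgeR adjusted p = 2.95e-10.

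Among matrix proteases and inhibitors, the stromelysins and the inhibitor Timp3 had the largest log2 fold changes of those that rose. Of 21 tested, 8 rose and 3 fell (median 0.390). Mmp3, stromelysin 1, was at 55.1 and 58.5 CPM in MC010 against 0.0479, 0.0935, 0.0342 and 0.0111, a pooled ratio of 1220-fold, 95% interval 753 to 2140. Mmp10, stromelysin 2, was at 25.9 and 25.8 CPM against 0.239, 0.152, 0.103 and 0.08901 (log2 fold change 7.46, standard error 0.22, edgeR adjusted p = 8.62e-09). Timp3, a tissue inhibitor of metalloproteinases, was at 109 and 117 CPM against 1.28, 2.08, 4.02 and 3.22 (log2 fold change 5.40, standard error 0.38, edgeR adjusted p = 1.01e-04), and both MC010 libraries lay far above all WT-labelled libraries. Mmp13, a collagenase, rose (log2 fold change 4.17), and Mmp9, gelatinase B, was at 2.398 and 2.78 against 0.407, 0.152, 0.171 and 0.234 (log2 fold change 3.41, standard error 0.34, edgeR adjusted p = 2.15e-05). The others that rose were Serpine2, a serine protease inhibitor (log2 fold change 2.93), Adamts2 (1.41) and Plat, tissue plasminogen activator (0.78). Mmp2, gelatinase A, was at 275 and 261 CPM against 624, 593, 579.9 and 574 (log2 fold change -1.16, standard error 0.054, edgeR adjusted p = 1.46e-07), and Adam12 fell (log2 fold change -2.31).

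Secreted growth regulators changed in both directions. Of 32 tested activin and BMP genes, 12 rose and 7 fell, and the median was 0.121. Besides Fst, the ligand Bmp4 was at 12.1 and 12.4 CPM against 0, 0, 0 and 0.0223, a pooled ratio of 2120-fold, 95% interval 585 to 17500, and the receptors Tgfbr1 (log2 fold change 1.36) and Acvr1b (log2 fold change 1.14) rose. Fstl1, a follistatin-like protein, was at 189 and 196 CPM against 743, 742, 912 and 896 (log2 fold change -2.11, standard error 0.098, edgeR adjusted p = 3.29e-07). Inhbb, the beta B subunit of activin, was at 0.569 and 0.531 against 6.905, 5.83, 8.39 and 8.14 (log2 fold change -3.73, standard error 0.21, edgeR adjusted p = 4.74e-07), and the receptor Bmpr1b at 0.166 and 0.231 against 1.84, 2.64, 2.86 and 3.42 (log2 fold change -3.79, standard error 0.34, edgeR adjusted p = 1.03e-05). Tgfbr3 fell as well (-0.99).

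Of 32 tested receptor tyrosine kinases and ligands, 13 rose and 10 fell, around a median of -0.001. Pdgfra, the alpha receptor of platelet-derived growth factor, was at 70.3 and 72.4 CPM against 17.7, 19.8, 18.3 and 17.1 (log2 fold change 1.96, standard error 0.067, edgeR adjusted p = 1.95e-08), and of its family of ligands Pdgfd was at 18.3 and 19.2 against 0.1197, 0.129, 0.171 and 0.389 (log2 fold change 6.50, standard error 0.32, edgeR adjusted p = 5.95e-07) while Pdgfc was at 16.99 and 17.5 against 86.7, 90.2, 94.2 and 88.8 (log2 fold change -2.39, standard error 0.057, edgeR adjusted p = 2.34e-09). Egfr, the receptor of epidermal growth factor, was at 1.99 and 1.39 CPM against 24.5, 23.1, 29.1 and 27.8 (log2 fold change -3.94, standard error 0.17, edgeR adjusted p = 9.90e-08). Kitl, the ligand of KIT, rose (log2 fold change 2.05), and so did Fgf10 (5.91), whereas Vegfa (-1.28) and Axl (-0.96) fell.

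Cytokine and chemokine genes held 9 that rose and 8 that fell among 22 tested (median 0.553). Cxcl1, a chemokine for neutrophils, was at 7.500 and 7.98 CPM against 0.407, 0.397, 0.5699 and 0.445 (log2 fold change 4.07, standard error 0.18, edgeR adjusted p = 9.11e-08), and Cx3cl1, fractalkine, at 96.7 and 86.2 against 35.6, 33.1, 24.4 and 25.99 (log2 fold change 1.61, standard error 0.16, edgeR adjusted p = 1.37e-04). Csf3, which encodes G-CSF, was low on both sides, with 77 reads in MC010 and 15 in the WT-labelled lines in all, a pooled ratio of 9.48-fold, 95% interval 5.41 to 17.8. Cxcl14 was at 0 counts in the WT-labelled libraries and 0.289 and 0.395 CPM in MC010 (at least 9.87-fold higher). Il33, an alarmin, was at 9.897 and 9.76 CPM against 129, 132, 92.9 and 87.5 (log2 fold change -3.50, standard error 0.25, edgeR adjusted p = 5.79e-05), Csf1, the growth factor of macrophages, at 349 and 341 against 601, 581, 499.7 and 508 (log2 fold change -0.68, standard error 0.086, edgeR adjusted p = 1.47e-04), and Ccl5 at 2.71 and 2.38 against 11.98, 11.2, 19.01 and 19.7 (log2 fold change -2.60, standard error 0.29, edgeR adjusted p = 1.60e-04). Ccl5 is also induced by interferon. Tslp fell from 276 reads in all to 14.

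Among HOX genes with reads in MC010, the largest falls were those of Hoxb9, Hoxa9, Hoxc10 and Hoxa10. HOX genes record where along the body a fibroblast arose, and the higher numbers mark posterior and distal positions. Of 27 tested, 13 fell and 4 rose, and the median was -0.483. Hoxa9 was at 0.543 and 0.436 CPM in MC010 against 29.1, 28.5, 29.3 and 29.04 (log2 fold change -5.87, standard error 0.11, edgeR adjusted p = 8.01e-10), Hoxa10 at 0.639 and 0.4900 against 22.1, 22.5, 22.1 and 24.3 (log2 fold change -5.31, standard error 0.13, edgeR adjusted p = 3.21e-09) and Hoxc10 at 0.761 and 0.626 against 26.98, 25.3, 29.3 and 30.4 (log2 fold change -5.32, standard error 0.13, edgeR adjusted p = 3.21e-09). Hoxb9 was at 0.149 and 0.177 CPM against 9.18, 9.89, 11.8 and 10.98, and Hoxa11 at 0 counts in MC010 against 0.0359, 0.152, 0.114 and 0.312 CPM (at least 4.57-fold lower). Of the other members of groups 9 and 10, Hoxc9 fell by 1.27 on the log2 scale, Hoxd9 was not called (log2 fold change -0.07) and Hoxd10 was too low to test. Within the HoxA cluster the genes from Hoxa3 to Hoxa7 fell, by 1.02 to 1.84 on the log2 scale, while in the HoxB cluster Hoxb2 to Hoxb8 were not called. The 4 that rose were Hoxc6 (1.09), Hoxc5 (1.01), Hoxc8 (1.14) and Hoxa2 (1.28), given as log2 fold changes. No HOX gene was called between MC654 and MC659. Between MC010 and MC011, 17 were lower and 3 higher in MC010, with a log2 difference of -5.34, edgeR adjusted p = 4.54e-16 for Hoxa9. Hoxc5 and Hoxa3 span their neighbours on the same strand. The counts of Hoxc5, Hoxc6, Hoxc8, Hoxc9 and Hoxc10 and of Hoxa3, Hoxa4, Hoxa5 and Hoxa6 are uncertain for that reason.

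Imprinted and germline genes moved in both directions. Of 26 imprinted genes 20 were tested, 7 rose and 5 fell (median 0.169). Dlk1, a paternally expressed growth regulator, was at 44.4 and 36.9 CPM against 1376, 1174, 1184 and 1223 (log2 fold change -4.94, standard error 0.12, edgeR adjusted p = 8.20e-09) and Plagl1, a zinc finger gene, at 1.61 and 2.096 against 27.2, 28.2, 30.1 and 30.8 (log2 fold change -3.997, standard error 0.12, edgeR adjusted p = 1.06e-08). Peg10, a retrotransposon-derived gene, was at 191 and 195 CPM against 27.6, 29.2, 31.9 and 28.2 (log2 fold change 2.72, standard error 0.057, edgeR adjusted p = 1.26e-09), Igf2r at 261 and 263 against 173, 169, 169.5 and 166 (log2 fold change 0.62, standard error 0.041, edgeR adjusted p = 1.49e-06) and Grb10, an adaptor of insulin signalling, at 15.3 and 15.7 against 1.03, 1.08, 0.422 and 0.668 (log2 fold change 4.27, standard error 0.29, edgeR adjusted p = 5.44e-06). Nnat was at 0 counts in MC010 and at 0.263, 0.105, 0.114 and 0.167 CPM in the WT-labelled lines (at least 4.84-fold lower). Of 29 germline genes 10 were tested, 4 rose and 2 fell (median -0.394). Those that rose were Crisp1 and Tdrd1 above, Sycp2, of the synaptonemal complex (0.753 and 0.789 CPM against 0.0838, 0.0468, 0.0342 and 0.0334), and Tex14 (log2 fold change 2.55).

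Markers of cell types were checked against the fibrosarcoma label. In bulk RNA, fewer cells of a type and less RNA per cell cannot be told apart. All 18 mesenchymal markers were tested, and their summed level was 12441 to 13234 CPM in MC010 and 16397 to 18167 in the WT-labelled lines. Vim, vimentin, was at 7389.7 and 6726 CPM against 4782, 4501, 4786 and 4905 (log2 fold change 0.56, standard error 0.05, edgeR adjusted p = 9.63e-06), which is short of the fold threshold. Of the 18, 5 rose and 2 fell (median 0.111): Prrx1, a limb mesenchyme homeobox gene, was at 1004 and 1042 CPM against 318, 336, 342 and 336 (log2 fold change 1.61, standard error 0.042, edgeR adjusted p = 4.13e-09), and S100a4 rose by 1.37 on the log2 scale. Fap rose by 1.40. The 2 that fell were Fn1, fibronectin (log2 fold change -2.80), and Col1a1 (-2.10). The difference of Fn1 in CPM, given above, was larger than that of the summed level.

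Markers of other cell types did not move as whole lists. Among muscle markers, 2 rose and 4 fell of 12 tested (median -0.349): Myod1, the myogenic master regulator, was at 2.46 and 2.78 CPM against 0.0838, 0.0351, 0.137 and 0.08901 (log2 fold change 4.89, standard error 0.34, edgeR adjusted p = 2.00e-06), Tagln, a smooth muscle actin-binding protein, at 14.4 and 13.2 against 178, 165, 197 and 209.9 (log2 fold change -3.77, standard error 0.11, edgeR adjusted p = 1.35e-08) and Acta2 at 149.7 and 142 against 298, 279.7, 475 and 504 (log2 fold change -1.42, standard error 0.31, edgeR adjusted p = 0.0106). Of 7 tested epithelial markers 4 rose and 1 fell (median 1.226). Their summed level was 533 to 568 CPM in MC010 against 116 to 129, nearly all of it the keratins Krt8 (294 and 274 CPM against 19.4, 20.5, 36.3 and 39.1, log2 fold change 3.29, standard error 0.33, edgeR adjusted p = 5.78e-04) and Krt18 (272 and 257 against 109, 106, 77.7 and 83.8, log2 fold change 1.48, standard error 0.15, edgeR adjusted p = 1.74e-04), while Cdh1, E-cadherin, had 2 reads in MC010 and 58 in the WT-labelled lines.

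Blood and vessel markers were low everywhere. The summed hematopoietic markers were 7.35 to 8.37 CPM in MC010 and 10.3 to 12.2 in the WT-labelled lines, and the summed endothelial markers were 2.99 to 3.26 CPM and 1.08 to 1.26. Ptprc, CD45, was at 0.158 and 0.177 CPM against 0.0239, 0.0117, 0.0228 and 0.0223, a pooled ratio of 8.18-fold, 95% interval 3.53 to 22.00. Of 15 hematopoietic markers, 7 were in the table and 6 tested, 2 rose (Laptm5 and Ptprc) and 2 fell (Csf1r and Coro1a, median -0.658). Of 10 endothelial markers, 6 were tested, and 3 rose, Tie1, Tek and Esam (median 0.465). The part of such cells in the other results, Irf8 and the interferon-response genes included, was not tested.

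Proliferation genes were close to the WT-labelled lines. Of 24 tested, 1 rose, Pcna (470.1 and 457 CPM against 267, 274, 258 and 258, log2 fold change 0.80, standard error 0.047, edgeR adjusted p = 5.95e-07), and 1 fell, Ccnb2 (60.3 and 58.9 against 105, 103, 116 and 107, log2 fold change -0.86, standard error 0.055, edgeR adjusted p = 1.07e-06), and the median was 0.304. Without the fold threshold 20 were higher and 3 lower, so the differences were small in size and mostly in 1 direction. At that threshold 5132 of all 16072 tested genes were higher and 4923 lower. Mki67, the Ki-67 antigen, was at 470.4 and 503 CPM against 538, 580.5, 588 and 552 (log2 fold change -0.22, standard error 0.052, edgeR adjusted p = 0.00419).

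Differences also followed the chromosomes. Among 10916 genes with an average log2 CPM of at least 1, the median log2 fold change on chromosome 7 was -0.384, with 8.87% of genes called higher and 32.01% lower, and 100% of its 51-gene running medians were below 0. Chromosome 12 had a median of -0.34. On the other side, chromosome 15 had a median of 0.355 (30.67% higher, 8.21% lower), with 0% of its running medians below 0. Chromosomes 17 and 19 had medians of 0.276 and 0.214. Relative to MC011 the medians of MC010 were -0.144 on chromosome 7, -0.475 on 12 and 0.033 on 15. They were 0.315 on chromosome 17 and 0.101 on 19. Over all chromosomes the running medians of MC010 against the WT-labelled lines spanned -0.746 (on chromosome 18) to 0.844 (on chromosome 19), and those of MC654 against MC659 spanned -0.101 to 0.123. These medians are a description across neighbouring genes, and copy number was not measured.

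**Figure D5:**
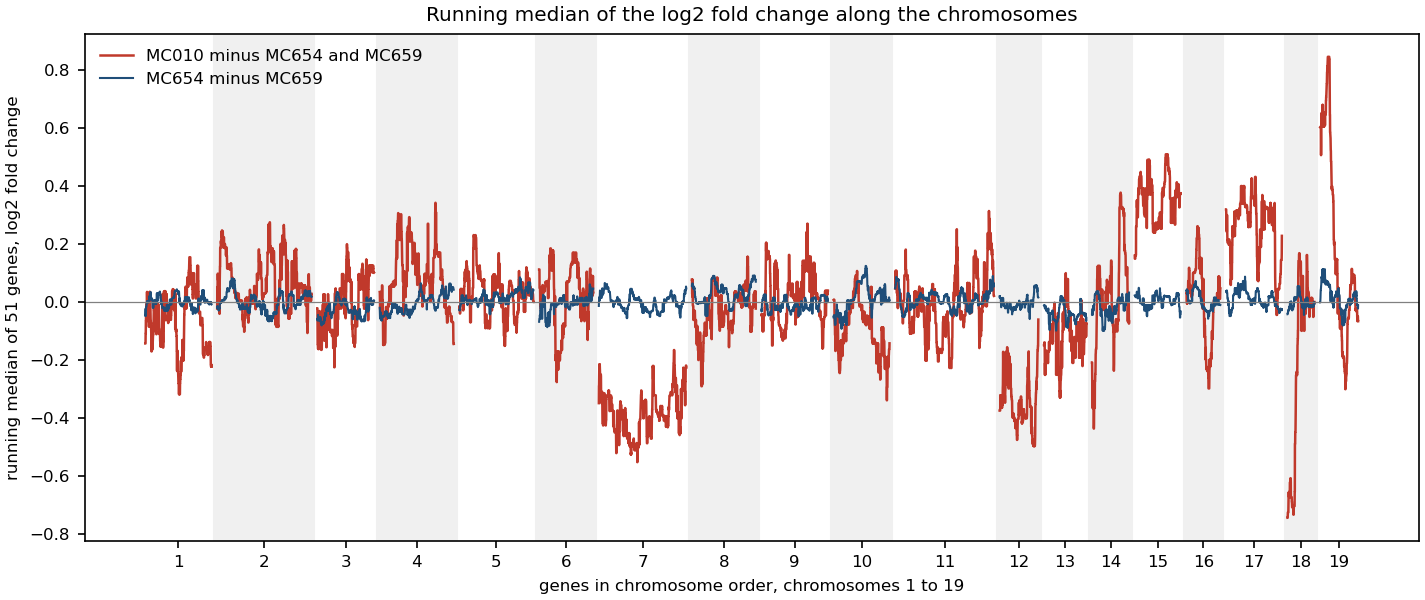
Running median of log2 fold change over 51 neighbouring genes (y axis) in chromosome order (x axis, chromosomes 1 to 19), for MC010 minus the WT-labelled lines and for MC654 minus MC659. The first line leaves 0 over long stretches, down on 7, 12 and the start of 18 and up on 15, 17 and the start of 19, while the second stays between -0.101 and 0.123.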

How the data were processed

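RNA-seq libraries of 4 mouse fibrosarcoma lines, 2 per line, were prepared by the authors from total RNA with a stranded mRNA protocol. Per the labels, reads were aligned with STAR 2.7.3a to mm10 (GRCm38.p6) and counted per gene with HTSeq 0.11.2, while the study's methods name earlier versions of both tools, and whether counting used strand is not given in the sources used here. The authors' table, as used here, holds raw counts for 18768 genes, each with at least 20 counts in all. Nearly all genes tested lay on chromosomes 1 to 19. It also holds the authors' size-factor normalized values, a signal, and their own comparison of all KO-labelled with all WT-labelled libraries as a log2 fold change, its test score and a p-value, and none of these columns was used. Of the gene identifiers, 18736 were in GENCODE M21, and 17726 had the same start and end there.

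Counts of MC010, MC654 and MC659 were tested with edgeR 4.0.16 in R 4.3.3, by the quasi-likelihood test with TMM scaling, the low-count filter of filterByExpr and a robust fit, MC010 against both WT-labelled lines as 1 group. Adjusted p-values are Benjamini-Hochberg values over all genes tested, and genes were called at an adjusted p under 0.05 and a log2 fold change beyond 0.59. A second fit of all 8 libraries, with 1 group per line, gave differences between pairs of lines. Total counts were 74063616 to 116206078 per library, and 3 counts, the floor used for genes at 0, were 0.0263 to 0.0408 CPM. Fold changes against 1 to a few reads are given as ratios of pooled counts with exact 95% intervals, which cover counting error only. List medians were the same with such genes at their bound. Replicate libraries of a line differed by more than sampling noise (chi-square per degree of freedom 8.19 to 14.4). On simulated counts (15608 genes) the test called 74 of 94 genes changed by 1 on the log2 scale. It called 91 of 98 changed by 2, with 5 false calls. The simulation changed 200 genes, gave MC654 and MC659 the same means, and took its spread from libraries within lines. In the data 36.3% of tested genes were called and MC654 differed from MC659, so these rates do not describe the comparison itself.

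Named were Irf8, genes that the study names, the 15 genes with the largest change in each direction among called genes with an average log2 CPM of at least 1 and non-overlapping libraries, up to 4 members of each list in each direction with the smallest adjusted p, and a fixed set followed through the alternatives. Perp, Gch1, Acsl6, Cxcl10, Irgm1, Prdx1, Slc1a4, the remaining HOX genes and the blood and vessel markers were named after their values were seen. Some genes that these rules name are not reported here, though list counts include them. The comparison and the 24 gene lists were chosen with earlier results of these data known. Alternatives used DESeq2 1.42.0, limma 3.58.1, other scalings, filters and designs, and left out each library or line in turn. Leaving out libraries in the comparisons between lines, and the filter and scaling alternatives for the difference of MC010 from MC011, were chosen after seeing the data. Promoter windows came from RefSeq on GRCm38.p6.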

Additional observations from a re-analysis of the deposited data

Results flagged for a closer look

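Among the 39 groups of 4 WT-labelled values checked, 1 library stood apart by Dixon's criterion in 4 genes. Its rate of about 1 in 20 groups holds for continuous values from 1 population, whereas these are 2 libraries of each of 2 lines. Cdkn2a was highest in MC654 library 1, at 377 CPM. Crisp1 was at 0.0117 CPM in MC654 library 2 and Scara5 at 0.0111 CPM in MC659 library 2, each a single read where the other libraries had none. Aldh3a1 was at 0 CPM in MC659 library 2, where the other libraries had 1 read each. With such counts of 0 and 1 the criterion is met in any case, so these flags carry no information.

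Of 29 genes for which MC010 was tested against MC011, the other line labelled IRF8 KO, 22 differed by edgeR's test. The test set MC010 directly against MC011, so this is a difference between 2 tumor lines that share a label. Tumor suppressor and cell cycle genes differed in both directions, with log2 differences (MC010 minus MC011) of 1.06 for Trp53, 1.99 for Cdkn1a, -5.74 for Cdkn2a and -5.93 for Cdkn2b. Irf8 itself differed by 4.18. The ferroptosis and antioxidant genes that differed were higher in MC010, by 2.58 for Slc7a11, 1.29 for Gclc, 0.71 for Gclm, 2.14 for Nqo1, 3.10 for Slc40a1 and 2.31 for Ptgs2. Of the interferon-response genes, MC010 exceeded MC011 by 1.43 for Irf7, 2.20 for Ifit1 and 1.93 for Oas2. The Oas2 value rests on 10 and 3 reads in MC010 and 3 and 0 in MC011 (edgeR adjusted p = 0.0475). When single libraries were left out it ran from 1.123 to 5.627, and the call was lost without MC010 library 1, MC011 library 2 or either MC659 library. Among the genes with the largest changes, the log2 differences were 17.59 for Esp15, 8.89 for Cck, 14.37 for Rpl39l and 7.96 for Klhl1, and -8.39 for Fam169a, -2.60 for C920009B18Rik and -2.91 for Snhg11. Col1a1 differed by -2.33.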

How the results depend on the processing

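Of the 29 genes followed under 17 alternatives each, 26 kept their side of the thresholds under all of them, and each called gene kept its direction. The log2 fold changes of Gpx4 (-0.046 to 0.037) and Slc40a1 (-1.167 to 0.051) lay on both sides of 0. The exceptions were Slc40a1, called without MC654 (-1.167), Vim, called without the fold threshold, without MC659 (0.593) and without MC010 library 2 (0.636), and Mki67, called without the fold threshold. Genes called higher and lower were 2727 to 3154 and 2259 to 2642 when each library was left out in turn, and 5132 and 4923 without the fold threshold. Between pairs of lines the calls without the fold threshold were 10629 (MC010 and MC654), 10830 (MC010 and MC659), 2175 (MC654 and MC659) and 10184 (MC010 and MC011), and leaving out each library gave 5562 to 6062, 5677 to 6322, 570 to 770 and 5029 to 5607.

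Without the fold threshold the lists held, higher and lower, 19 and 11 ferroptosis genes, 9 and 9 p53 targets, 4 and 5 MHC class I genes, 20 and 3 proliferation genes, 10 and 5 sterol genes, 8 and 5 mesenchymal markers, and, higher, 8 INK4 and RB-pathway genes, 5 glycolysis genes, 4 muscle markers and 1 ATF4 target. With counts of each line added together there were 1 MHC gene higher and 1 lower, 5 cytokine, 3 imprinted, 1 germline, 2 muscle and 1 hematopoietic genes lower, and 3 mesenchymal, 2 epithelial and 1 endothelial markers higher. Without MC654 there were 0 MHC genes higher and 6 lower, 4 germline genes and 4 mesenchymal markers lower. Without MC659 there were 4 MHC genes higher and 1 lower, 5 proteases lower, 2 proliferation genes higher, 1 hematopoietic marker lower and 5 neighbours of Cdkn2a higher. With 1 group per line, in 8 or 6 libraries, 4 MHC genes were lower and 5 neighbours of Cdkn2a higher. Leaving out each library gave 1 to 2 MHC genes higher and 1 to 5 lower, 5 to 8 cytokine genes lower, 3 to 5 mesenchymal and 2 to 5 epithelial markers higher, and 1 to 4 muscle markers and 2 to 4 neighbours of Cdkn2a lower. The lowest of these came without MC010 library 1 (mesenchymal, epithelial and muscle markers, neighbours) or without MC010 library 2 (cytokines, muscle markers, MHC), and the 5 MHC genes without MC654 library 2. The library number did not pair the samples (correlations of same-numbered deviations 0.2653, -0.1543 and -0.1722). With it as a replicate block, the calls were 3075 higher and 2568 lower, 5620 of these 5643 genes were among the 5827, and 1 MHC gene was higher. The log2 difference of MC010 from MC011 was 1.123 to 5.627 for Oas2 when libraries were left out, and the call was lost without MC010 library 1, MC011 library 2 or either MC659 library. The cause of these moves was not tested. Depth limits genes near 3 counts per library.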
